A study of Rattus norvegicus with 11 samples.

Results

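Ca4, Saal1, Mtmr7 and Tgm1 are 4 of the 23781 genes measured by RNA sequencing in cells from healing defects of the rat skull. They were selected by name because their levels in the PLA libraries were among the largest increases outside the cytokine families. Their PLA values are therefore given as a description, without a test, and the comparisons that do not involve PLA are tested. The tables hold 1 row under each of the 4 names, and all 4 rows passed the filter on low counts that left 18049 genes for testing.

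The study compared scaffold materials in defects that cut through the coronal suture and the adjoining bone of male Sprague Dawley rats aged 4 months. PLA was an electrospun poly(L-lactide) membrane (2 libraries), GelMA a methacrylated gelatin hydrogel (3 libraries) and CTS a chitosan hydrogel crosslinked with tripolyphosphate (3 libraries). NC was the same defect left without a scaffold (3 libraries). The periosteum was removed at surgery in all groups. Nascent tissue was digested with collagenase 6 weeks after surgery, and cells that did not stain for CD45 were sorted after fixation and permeabilization. The labels do not say whether the libraries of a group came from separate animals, so p-values measure the spread between these libraries only.

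The libraries held between 22509898 and 31290849 counts. Ptprc, which encodes CD45, had between 7446 and 44842 counts in every library, which goes against the label Cd45- as a description of the RNA. NC replicate 2 stood apart: its Ptprc level was 52.7 FPKM (fragments per kilobase of gene length, scaled to the library total), against 298 and 248 in NC replicates 1 and 3, and its Col1a1 level was 10157, against 628 and 1793. Each NC comparison was therefore also run without it. In such bulk libraries, fewer cells of a type and less RNA per cell cannot be told apart.

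The 4 genes belong to unrelated families. Ca4 encodes carbonic anhydrase 4, an enzyme tethered to the outer face of the plasma membrane that interconverts carbon dioxide and bicarbonate and is known from lung capillary endothelium and kidney. Mtmr7 encodes a myotubularin phosphatase, which removes the 3-phosphate from membrane phosphoinositides and so opposes the lipid kinases that add it. Tgm1 encodes keratinocyte transglutaminase, which crosslinks proteins into the cornified envelope of skin.

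The name Saal1 needed care. In the RefSeq gene table of the GRCr8 assembly, Saal1 is the current symbol of the gene for serum amyloid A like 1, and it is also an older symbol of a second gene, now called Saa3 (serum amyloid A3). The tables hold a separate row, LOC691143, whose number is the ID of the first gene, and no row named Saa3 was found. The ratio of count to FPKM implied a length of 693 bases for the Saal1 row and 3299 bases for LOC691143. The row listed as Saal1 is therefore called the Saal1 row below, with Saa3 as the gene its name most likely stands for, and LOC691143 is given beside it. Saa3 is an acute-phase apolipoprotein, made outside the liver by macrophages and other cells in mice, whereas serum amyloid A like 1 is a different protein despite its name. The annotation places the 2 genes next to each other, with 533 bases between them.

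The start-site regions of these genes are shown because the 4 genes were high in the same libraries. The sequences are from RefSeq (GRCr8), 300 bases each, running 250 bases before to 50 bases after the annotated start, and capitals mark the only match to the motifs searched. The table had an entry for Ca4 (current symbol Car4, chr10:70325108-70325407, plus strand), Saa3 (chr1:106358381-106358680, minus strand), LOC691143 (current symbol Saal1, chr1:106353779-106354078, minus strand) and Tgm1 (chr15:33174218-33174517, minus strand). Mtmr7 is named only.
Ca4: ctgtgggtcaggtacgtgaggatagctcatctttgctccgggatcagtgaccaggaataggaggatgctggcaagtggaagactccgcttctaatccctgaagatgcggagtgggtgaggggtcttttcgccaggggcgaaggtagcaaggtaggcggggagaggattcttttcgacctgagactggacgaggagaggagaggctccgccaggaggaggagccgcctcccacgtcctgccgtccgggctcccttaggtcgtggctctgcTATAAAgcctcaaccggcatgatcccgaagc
Saa3: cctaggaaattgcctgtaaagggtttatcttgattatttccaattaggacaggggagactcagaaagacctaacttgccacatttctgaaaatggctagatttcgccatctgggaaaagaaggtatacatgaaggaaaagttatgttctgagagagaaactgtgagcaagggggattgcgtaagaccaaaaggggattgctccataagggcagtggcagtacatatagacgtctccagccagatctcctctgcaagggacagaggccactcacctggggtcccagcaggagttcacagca
LOC691143: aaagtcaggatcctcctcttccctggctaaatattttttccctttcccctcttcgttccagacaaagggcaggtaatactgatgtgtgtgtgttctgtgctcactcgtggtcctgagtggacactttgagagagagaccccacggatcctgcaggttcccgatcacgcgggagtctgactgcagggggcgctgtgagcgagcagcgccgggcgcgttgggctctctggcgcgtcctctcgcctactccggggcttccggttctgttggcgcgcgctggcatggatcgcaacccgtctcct
Tgm1: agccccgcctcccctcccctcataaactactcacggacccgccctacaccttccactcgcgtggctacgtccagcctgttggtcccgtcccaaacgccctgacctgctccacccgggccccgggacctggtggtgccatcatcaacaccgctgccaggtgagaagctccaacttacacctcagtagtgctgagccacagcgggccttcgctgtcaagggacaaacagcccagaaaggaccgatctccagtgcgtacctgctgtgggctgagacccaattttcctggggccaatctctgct
On both strands of each region, 7 motifs were searched, and 1 match was found. A TATA box (TATAAA) began 20 bases after the annotated start of Ca4, on the plus strand. It occurs in 14.2% of the 33469 regions of this kind. The AP-1 motif TGANTCA, found in 7.33% of all regions, the E-box CACGTG (6.42%), the CRE TGACGTCA (1.83%), the STAT motif TTCNNNGAA (8.87%), the antioxidant response element TGACNNNGC (12.1%) and the NF-kB motif (7.51%) had no match in these 4 windows. The letters of TGACNNNGC and TGACGTCA can overlap.

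Ca4 was measured at 849 and 868 FPKM in the PLA libraries. It had 73.5, 108 and 150 FPKM in GelMA, 3.27, 8.40 and 21.9 FPKM in CTS, and 6.25, 1.99 and 3.01 FPKM in NC. Both PLA libraries lay above every other library, all GelMA libraries lay above all CTS and NC libraries, and CTS overlapped NC. The mean level in PLA (859 ± 13.9, SD, n = 2) was 7.79 times that in GelMA (110 ± 38.1, n = 3), 76.7 times that in CTS (11.2 ± 9.64, n = 3) and 229 times that in NC (3.75 ± 2.22, n = 3). The lower PLA library was 5.67 times the highest GelMA library. By FPKM, Ca4 ranked 76 and 77 among all 23781 genes in PLA, against 6248 to 9455 in NC.

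The Saal1 row was the most abundant of the 4. It had 3252 and 3544 FPKM in PLA, 312, 691 and 866 FPKM in GelMA, 29.6, 39.1 and 34.7 FPKM in CTS, and 24.9, 7.60 and 33.6 FPKM in NC. PLA lay above GelMA and GelMA above both other groups without overlap, while CTS and NC overlapped. It ranked 14 and 13 by FPKM in the PLA libraries and took 0.225% and 0.246% of their counts. The PLA mean (3398 ± 206) was 5.45 times the GelMA mean (623 ± 284), 98.5 times the CTS mean (34.5 ± 4.80) and 154 times the NC mean (22.0 ± 13.2).

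Mtmr7 differed in one respect: its separation of PLA from GelMA was the widest. It was measured at 50.5 and 54.1 FPKM in PLA, 2.23, 3.59 and 5.91 FPKM in GelMA, 2.11, 1.44 and 1.14 FPKM in CTS, and 1.03, 0.244 and 1.70 FPKM in NC. Both PLA libraries exceeded all others, each GelMA library exceeded each CTS and NC library on the FPKM scale, and CTS overlapped NC. On counts per scaled library (CPM with TMM factors), GelMA replicate 1 (14.81) and CTS replicate 1 (14.83) were level, so GelMA and CTS overlapped there. The PLA mean (52.3 ± 2.53) was 13.4 times the GelMA mean (3.91 ± 1.86), 33.5 times the CTS mean (1.56 ± 0.498) and 52.8 times the NC mean (0.991 ± 0.729).

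Tgm1 was the least abundant of the 4 in PLA, though not in GelMA, where Mtmr7 was lower in every library. It had 20.5 and 18.8 FPKM in PLA, 2.84, 4.67 and 6.91 FPKM in GelMA, 0.304, 0.787 and 1.70 FPKM in CTS, and 0.383, 0.214 and 0.784 FPKM in NC. The groups fell in the same order as for the other 3 genes, with CTS and NC overlapping. The PLA mean (19.6 ± 1.17) was 4.08 times the GelMA mean (4.81 ± 2.04), 21.1 times the CTS mean (0.931 ± 0.710) and 42.6 times the NC mean (0.460 ± 0.293).

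**Figure D1:**
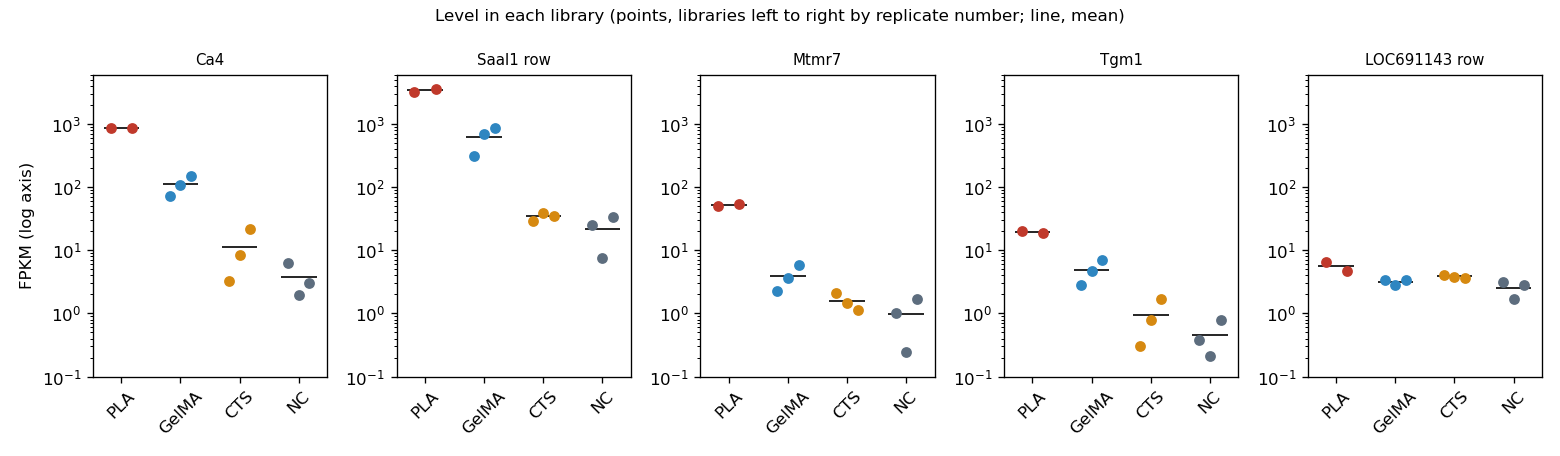
FPKM on a log axis in each library of PLA, GelMA, CTS and NC, with the group mean as a line. For the 4 genes the PLA points sit above all others and the GelMA points above the CTS and NC points, whereas LOC691143 stays between 1.69 and 6.43 FPKM.

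LOC691143, the row that carries the ID now named Saal1, did not share this pattern. It had 6.43 and 4.78 FPKM in PLA, 3.33, 2.83 and 3.38 FPKM in GelMA, 4.10, 3.79 and 3.67 FPKM in CTS, and 3.18, 1.69 and 2.86 FPKM in NC. The PLA libraries were again the highest, but by far less. Its log2 fold change was 1.48 ± 0.22 (SE) in PLA against NC (edgeR quasi-likelihood test, Benjamini-Hochberg adjusted p = 0.00185), 1.35 ± 0.22 against GelMA (adjusted p = 0.00545) and 1.02 ± 0.22 against CTS (adjusted p = 0.0150). The call against CTS was lost in 15 of 21 alternative settings, including 8 of the 11 that left out 1 library, where the adjusted p reached 0.163 without PLA replicate 1. The call against GelMA was lost in 5 of 21 settings, including without PLA replicate 1 (edgeR, adjusted p = 0.0823). The call against NC was lost in 3 of 21, with an adjusted p of 0.0616 by edgeR on the compared groups alone and a log2 fold change of 0.90 by limma on log2(FPKM + 1). Between GelMA and NC the log2 fold change was 0.13 (adjusted p = 0.724).

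The order of replicates was the same for all 4 genes only in GelMA. Within PLA, the higher library was 1.02 times the lower for Ca4, 1.09 times for the Saal1 row, 1.07 times for Mtmr7 and 1.09 times for Tgm1, with replicate 2 the higher except for Tgm1. Within GelMA the spread was 2.04 to 2.78 times, and replicate 3 was the highest and replicate 1 the lowest for all 4 genes. Within NC, replicate 2 was the lowest for all 4, while Ca4 was highest in replicate 1 and the other 3 genes in replicate 3.

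The CTS libraries also ordered the genes differently. Ca4 and Tgm1 were highest in CTS replicate 3, Mtmr7 was highest in CTS replicate 1, and the Saal1 row varied 1.32 times. Ca4 spanned 6.71 times and Tgm1 5.59 times over these libraries, yet the FPKM ratio of Ca4 to Tgm1 was 10.7, 10.7 and 12.9 in CTS replicates 1, 2 and 3. The same ratio was 41.5 and 46.2 in PLA, 25.9, 23.0 and 21.6 in GelMA, and 16.3, 9.28 and 3.84 in NC. The ratio of Mtmr7 to Tgm1, in contrast, was 6.94, 1.83 and 0.668 in CTS.

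The fitted log2 fold changes placed the 4 genes high in each PLA comparison, which is how they were chosen. In PLA against NC, Ca4 had 8.21, the Saal1 row 7.68, Mtmr7 6.15 and Tgm1 5.80, at ranks 38, 67, 162 and 196 of 18049. In PLA against CTS the values were 6.74, 7.10, 5.54 and 4.88, at ranks 34, 20, 90 and 125. In PLA against GelMA they were 3.50, 2.98, 4.28 and 2.56, at ranks 262, 414, 152 and 645. For scale, a gene was called where its adjusted p was under 0.05 and its log2 fold change beyond 1: 8.32% of tested genes were called higher and 4.01% lower in PLA against NC, 6.42% and 3.53% in PLA against CTS, and 4.61% and 1.47% in PLA against GelMA. The 3 PLA comparisons share the PLA libraries.

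In GelMA against NC, all 4 genes were called higher in GelMA. The choice of the genes did not use this contrast, but it used the same NC libraries as the reference for PLA, so the test is not fully independent of that choice. The same holds for CTS against NC, and for the GelMA and CTS libraries in CTS against GelMA. Across all tested genes, 5.03% were called higher and 3.21% lower in this comparison. Ca4 had a log2 fold change of 4.71 ± 0.69 (SE; edgeR quasi-likelihood test, adjusted p = 0.00268), and its mean FPKM was 29.4 times that in NC. The Saal1 row had 4.70 ± 0.50 (adjusted p = 0.000639), with a mean 28.3 times that in NC. Both calls held in all 21 alternative settings.

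Tgm1 rose by 3.24 ± 0.62 (SE) on the log2 scale in GelMA against NC (edgeR, adjusted p = 0.0106), a mean FPKM 10.4 times that in NC. Mtmr7 rose least, by 1.87 ± 0.53 (adjusted p = 0.0498, mean FPKM 3.95 times that in NC). The Mtmr7 call was lost in 14 of 21 settings, among them 9 of the 11 that left out a library, with an adjusted p of 0.191 without GelMA replicate 3, 0.122 without GelMA replicate 2, 0.0611 without GelMA replicate 1, 0.0766 and 0.0765 without PLA replicates 1 and 2, 0.0706, 0.0772 and 0.0686 without CTS replicates 1, 2 and 3, and 0.0740 without NC replicate 1. Without NC replicate 2, the library that stood apart, the 4 log2 fold changes were 4.49, 4.34, 1.45 and 2.97 for Ca4, the Saal1 row, Mtmr7 and Tgm1, and all 4 were still called (adjusted p 0.00583, 0.000386, 0.0427 and 0.0178).

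In CTS against NC, none of the 4 genes was called by edgeR or DESeq2, and 1 of them, Ca4, had an unadjusted p under 0.05 in edgeR's quasi-likelihood test. Few genes were called at all in this comparison, 0.155% higher and 0.0222% lower. The log2 fold changes were 1.47 ± 0.61 (SE) for Ca4 (adjusted p = 0.382), 0.58 ± 0.44 for the Saal1 row (adjusted p = 0.626), 0.60 ± 0.52 for Mtmr7 (adjusted p = 0.676) and 0.92 ± 0.59 for Tgm1 (adjusted p = 0.559). Without NC replicate 2 they were 1.25, 0.22, 0.18 and 0.65.

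CTS against GelMA compared the hydrogels directly, and 2 of the 4 genes were called, both lower in CTS. Over all tested genes 0.416% were called higher and 1.32% lower. The Saal1 row fell by 4.12 ± 0.49 (SE) on the log2 scale (edgeR, adjusted p = 0.00703), a call lost without CTS replicate 1 (adjusted p = 0.0560). Ca4 fell by 3.24 ± 0.64 (adjusted p = 0.0339).

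The Ca4 call between the hydrogels was lost in 11 of 21 settings. It was lost without PLA replicates 1 and 2 (adjusted p 0.0658 each), without GelMA replicates 1, 2 and 3 (0.0790, 0.115 and 0.127), without CTS replicates 1 and 2 (0.101 and 0.160) and without NC replicate 3 (0.0535). Tgm1 had a log2 fold change of -2.31 ± 0.58 (edgeR, adjusted p = 0.0722) and was called in 7 of the settings, including without CTS replicate 3 (adjusted p = 0.0393) and without NC replicate 2 (0.0316). Mtmr7 had -1.27 ± 0.52 (adjusted p = 0.237) and was called in none of them.

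**Figure D2:**
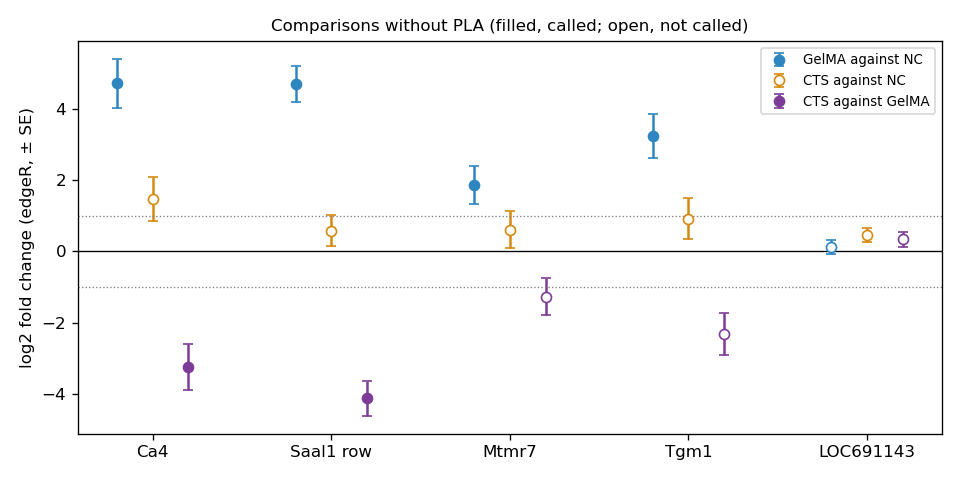
Log2 fold change from edgeR, with a standard error derived from its F statistic, for GelMA against NC, CTS against NC and CTS against GelMA. Filled points passed the call and open points did not, and the dotted lines mark a log2 fold change of 1 in either direction. All 4 genes are filled for GelMA against NC, none for CTS against NC, and Ca4 and the Saal1 row for CTS against GelMA.

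Relatives and pathway genes of the 4 genes were counted on 7 lists. In PLA against NC, 5 of the 54 tested (9.26%) were called higher, beside 8.32% of all tested genes. Another 5 (9.26%) were called lower, beside 4.01%. Against GelMA, the PLA calls were 2 higher (3.70%, beside 4.61%) and 0 lower (beside 1.47%). Against CTS, they were 5 higher (9.26%, beside 6.42%) and 3 lower (5.56%, beside 3.53%). For GelMA against NC, 2 were called higher (3.70%, beside 5.03%) and 6 lower (11.1%, beside 3.21%). Among 11 tested carbonic anhydrases other than Ca4, none was called higher in PLA against NC and 2 were called lower. Car1, the abundant cytosolic enzyme of red cells, had 0.288 and 0.376 FPKM in PLA and between 2.71 and 26.2 in NC, a log2 fold change of -4.87 (edgeR, adjusted p = 0.00917). Ca8, a family member without the enzyme's catalytic activity, had 0.981 ± 0.558 in PLA and 7.73 ± 2.70 in NC, with a log2 fold change of -2.71 (adjusted p = 0.0102). Both were also called lower in PLA against CTS (-4.30 and -2.37), and none of the 11 was called in PLA against GelMA.

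In GelMA against NC, 3 carbonic anhydrases were called lower, Car1 (-3.54), Ca8 (-3.01) and the mitochondrial Ca5b (-2.29), and none higher. Ca5b was the most abundant of the listed anhydrases by its mean over the groups, although Car2 was higher in GelMA (5.02 ± 1.08 FPKM). Ca5b was measured at 4.00 ± 0.260 FPKM in PLA, 4.55 ± 2.56 in GelMA, 12.3 ± 7.63 in CTS and 18.9 ± 1.61 in NC. In PLA, no listed anhydrase exceeded 4.19 FPKM in either library, against 849 and 868 for Ca4. The median log2 fold change of the 11 genes was -1.94 in PLA against NC, beside -0.11 over all tested genes.

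Bicarbonate transporters, which carry the ion that Ca4 handles, gave mixed values. Slc26a9, a chloride channel and bicarbonate exchanger, had 21.7 and 22.4 FPKM in PLA, 2.09, 3.32 and 5.63 in GelMA, 2.63, 2.44 and 1.83 in CTS, and 2.87, 0.638 and 3.05 in NC. Both PLA libraries lay above all others, and the gene was called higher against NC (log2 fold change 3.75, edgeR adjusted p = 0.00116), GelMA (3.12, adjusted p = 0.00539) and CTS (3.74, adjusted p = 0.00154). It was the 1 of 11 tested transporters called higher in PLA against NC and against GelMA, beside 8.32% and 4.61% of all tested genes.

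Of the other transporters, Slc4a10 and Slc4a4, both sodium-coupled, were called lower in PLA against NC (-4.15 and -2.34), and Slc4a10 also in PLA against CTS (-3.19). In PLA against CTS, Slc4a5 was called higher as well, with 30 to 110 counts in PLA against 0 to 4 in CTS. Slc4a7, the most abundant of the list by its mean over the groups, was called higher in GelMA against NC (1.34), where Slc4a10 (-2.32) and Slc4a4 (-1.75) were called lower.

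Serum amyloid genes other than the Saal1 row were nearly unmeasured. Saa4, a constitutively made serum amyloid and the neighbour of the Saal1 row on its other side, had 39 and 35 counts in PLA, 1, 0 and 0 in GelMA, 27, 0 and 12 in CTS, and 0 in all NC libraries. Against a floor of 3 counts over the NC group, it was at least 29.9-fold higher in PLA, and edgeR called it higher against NC (adjusted p = 0.0385) but not against GelMA (0.0668) or CTS (0.453). Ptx3, a pentraxin made by cells at sites of inflammation, ranged between 15.9 and 84.4 FPKM in PLA and between 10.9 and 342 in NC and was called in none of the 6 comparisons.

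Besides Mtmr7, 13 myotubularins were tested, and none of them was called in any of the 6 comparisons. The shares of all tested genes called were largest in PLA against NC (8.32% higher, 4.01% lower). They were smallest in CTS against NC (0.155% higher, 0.0222% lower). No call among 13 genes is near such shares and does not set the family apart. The median log2 fold change of these 13 was -0.13 in PLA against NC and 0.07 in GelMA against NC. Mtmr3, the most abundant, had 15.2 ± 0.894 FPKM in PLA and 20.9 ± 8.90 in NC. Kinases that make or convert the lipids which myotubularins act on were listed together with their partner proteins. Of 7 tested, 2 were called higher in PLA against NC, beside 8.32% of all tested genes. Pik3c2a, a class II phosphoinositide 3-kinase, had 14.5 ± 0.123 FPKM in PLA, 6.58 ± 0.385 in GelMA, 7.32 ± 0.519 in CTS and 6.56 ± 1.29 in NC. Its log2 fold changes in PLA were 1.49, 1.68 and 1.47 against NC, GelMA and CTS (edgeR, adjusted p 7.21e-05, 0.000304 and 0.000104). Pik3c2b was called higher against NC (1.27) and CTS (1.05), and Fig4, a phosphoinositide phosphatase, was called lower against NC (-1.08).

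Among the transglutaminases, 1 of 5 tested relatives of Tgm1 was called higher in PLA against NC and CTS. Over all tested genes the shares were 8.32% and 6.42%. Tgm2, the widely expressed tissue transglutaminase, had 50.1 and 35.9 FPKM in PLA, 36.7, 44.0 and 55.3 in GelMA, 19.1, 14.9 and 31.0 in CTS, and 11.9, 6.83 and 11.7 in NC. PLA and GelMA overlapped and both lay above CTS and NC. It rose by 2.44 on the log2 scale in PLA against NC (edgeR, adjusted p = 0.000685), by 1.47 in PLA against CTS (adjusted p = 0.0120) and by 1.98 in GelMA against NC (adjusted p = 0.00268). In PLA against GelMA the log2 fold change of Tgm2 was 0.46 (adjusted p = 0.392). F13a1, the clotting factor XIII subunit, was called lower in GelMA against NC (-1.41) and higher in CTS against GelMA (1.80).

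The proteins that Tgm1 is known to crosslink in skin were looked for as 14 cornified envelope genes, of which 9 had rows. Only 5 were tested (Evpl, Ppl, Scel, Cdsn and Tchh), and none of them was called in any comparison. The shares of all tested genes called ranged from 0.0222% (lower in CTS against NC) to 8.32% (higher in PLA against NC). No call among 5 genes is near such shares and does not set the list apart. Ivl, Loricrin, Sprr1b and Csta did not pass the filter on low counts. Flg, Sprr1a, Sprr2d, Sprr3 and Rptn had no row, so nothing is said of any of these untested genes. Ppl, the most abundant, had 2.43 ± 1.02 FPKM in PLA and 8.49 ± 7.56 in NC. Keratinocyte markers, 9 of 12 measured, summed to between 22.0 and 29.7 FPKM in PLA, 10.3 and 17.9 in GelMA, 6.66 and 20.5 in CTS, and 4.66 and 15.6 in NC. Krt1 and Krt15 were at 0 in every PLA, GelMA and NC library, and Dsg3 made up 17.9 to 22.2 FPKM of the PLA sums. Of the 6 keratinocyte markers tested, Tp63 and Cdh1 were called higher in PLA against NC, beside 8.32% of all tested genes. Tp63 had no counts in NC and was also called higher in GelMA against NC (log2 fold change 7.68, edgeR adjusted p = 0.0305). Its log2 fold change in PLA against GelMA was 0.07. None of the 6 was called in PLA against GelMA or CTS, beside 4.61% and 6.42% of all tested genes called higher.

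**Figure D3:**
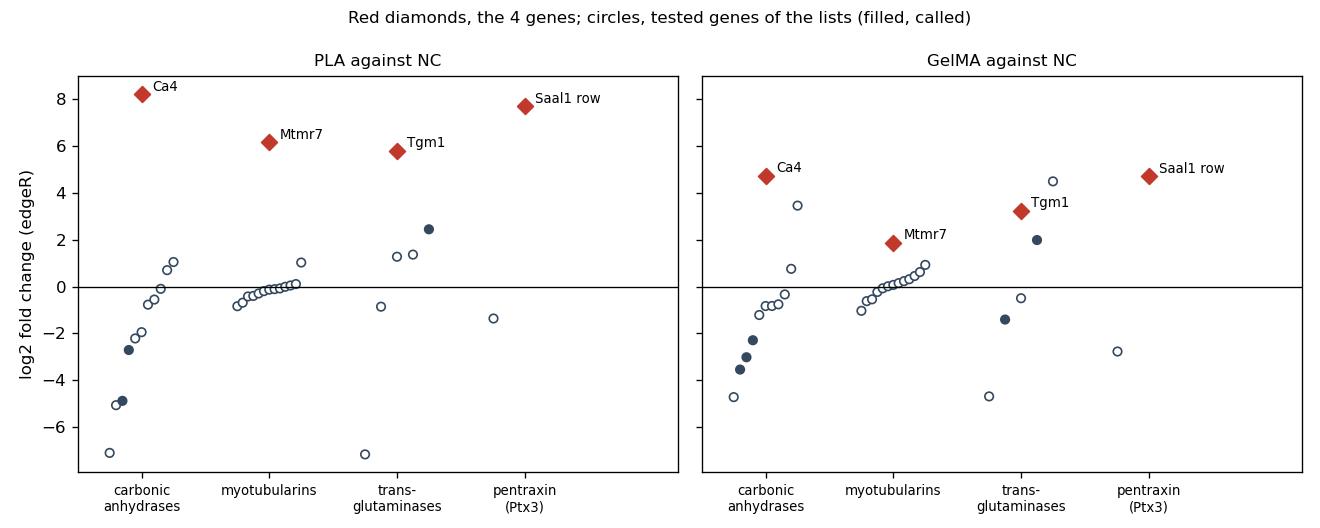
Log2 fold change of the 4 genes (red diamonds) and of the tested genes of their family lists (circles, filled where called) in PLA against NC and GelMA against NC. Saa4 is left out because it had no counts in NC. Its fitted log2 fold change in PLA against NC (8.49) was above that of the Saal1 row (7.68). The diamonds lie above every circle drawn in PLA against NC, but the 4 genes were chosen for their rises in PLA. The family lists hold 11 tested carbonic anhydrases, 13 myotubularins and 5 transglutaminases. The only circle beside the Saal1 row is Ptx3, a pentraxin, so no other serum amyloid gene is drawn.

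Endothelial markers, relevant to Ca4 because the enzyme is known from capillaries, summed to between 65.8 and 72.1 FPKM in PLA, 57.7 and 63.9 in GelMA, 55.2 and 114 in CTS, and 51.5 and 66.3 in NC. Of 10 markers, 2 were called higher in PLA against NC, 3 in PLA against GelMA and none in GelMA against NC. Over all tested genes, 8.32% were called higher and 4.01% lower in PLA against NC. The shares were 4.61% and 1.47% in PLA against GelMA, and 6.42% and 3.53% in PLA against CTS. They were 5.03% and 3.21% in GelMA against NC, 0.155% and 0.0222% in CTS against NC, and 0.416% and 1.32% in CTS against GelMA. Monocyte and macrophage markers summed to between 2304 and 2638 FPKM in PLA, 4069 and 6859 in GelMA, 7882 and 9984 in CTS, and 1496 and 8110 in NC. Of the 10, 8 were called higher in GelMA against NC, 5 in PLA against NC, 1 in CTS against NC and 3 in PLA against CTS, where the summed level was lower in PLA. Another 2 were called lower in PLA against GelMA and 3 lower in CTS against GelMA. Neutrophil markers summed to between 7424 and 7845 FPKM in PLA, 6182 and 17117 in GelMA, 37150 and 62646 in CTS, and 8786 and 86542 in NC. Of 9 tested, 5 were called lower and 1 higher in PLA against NC, 4 lower and 1 higher in PLA against CTS, 4 lower in GelMA against NC and 1 higher in CTS against GelMA. The part of these cell types in the levels of the 4 genes was not tested.

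Beside Saa4 and LOC691143, 3 other neighbouring genes were called higher in PLA: Vps37a, Usp32 and Tinf2. Saa4 was called only with NC as the reference. The remaining tested neighbours, Znhit3 and Rabggta, were not called in any PLA comparison. Adam24, the neighbour of Mtmr7 on its other side, was not tested. Among all tested genes, the share called higher in PLA was 8.32% with NC as the reference, 4.61% with GelMA and 6.42% with CTS. Vps37a, which encodes a subunit of the endosomal sorting complex ESCRT-I, overlaps Mtmr7 by 881 bases in the annotation. It had 51.9 and 67.0 FPKM in PLA, 18.1, 19.7 and 21.4 in GelMA, 17.3, 14.5 and 13.2 in CTS, and 20.2, 7.93 and 17.5 in NC. The PLA libraries lay above all others, and the log2 fold changes were 2.35, 2.13 and 2.47 against NC, GelMA and CTS (edgeR, adjusted p 0.000310, 0.00115 and 0.000285). Whether counting used strand is not given in the sources used here. How reads from the overlap were counted is therefore not known, and both values carry that uncertainty.

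Next to Ca4, the nearest genes with rows were Usp32 and Znhit3. Usp32, a ubiquitin protease, was called higher in PLA against NC (1.70), GelMA (1.52) and CTS (1.69), at 29.3 and 31.5 FPKM in PLA against 8.86 to 13.6 in NC, whereas Znhit3 was not called (0.07 against NC). Next to Tgm1, Tinf2, a subunit of the telomere-protecting shelterin complex, was called higher against NC (1.34), GelMA (1.20) and CTS (1.16). Rabggta, a subunit of the Rab prenylating enzyme lying 635 bases from Tgm1, was not called in any PLA comparison (0.78, -0.13 and 0.42). None of Usp32, Vps37a, Tinf2, Znhit3 and Rabggta was called in GelMA against NC, where all 4 of the chosen genes were. Rabggta missed the call there only on its log2 fold change of 0.91 (edgeR, adjusted p = 0.0488).

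The genes with the most similar profiles included several cytokine genes. Likeness was the root mean square difference of mean-centred log2 CPM (with TMM factors) over the 11 libraries, a description in which the PLA libraries weigh heavily. The Saal1 row was closest to Ca4 (0.70), followed by Il23a (0.87), which encodes a subunit of interleukin 23, and Sp6 (0.91), a transcription factor of tooth and skin. Il23a was in turn closest to the Saal1 row (0.46), before Tmc1 (0.59), a mechanotransduction channel of hair cells, and Sp6 (0.61). Sp6 had 0 counts in every CTS and NC library and Tmc1 had 0 to 9, so their likeness there rests on values at the floor. Il23a had 784 and 932 FPKM in PLA, 42.6, 99.6 and 175 in GelMA, 12.2, 10.6 and 9.12 in CTS, and 3.69, 2.03 and 7.90 in NC.

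Mtmr7 and Tgm1 had other closest genes. For Mtmr7 they were the unannotated LOC120095150 (0.42), Ebi3 (0.43), which encodes a subunit of interleukins 27 and 35, and the chemokine gene Ccl3 (0.54). For Tgm1 they were Tnf (0.53), Mmp13 (0.61), a collagenase, and Csf3 (0.65), the granulocyte growth factor. Ccl3 had 7974 and 7932 FPKM in PLA against 91.6 to 545 in NC, and Tnf had 326 and 415 in PLA against 5.34 to 9.96 in NC. From Mtmr7, the other 3 genes were farther: Tgm1 ranked 54, the Saal1 row 154 and Ca4 397 among all tested genes.

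**Figure D4:**
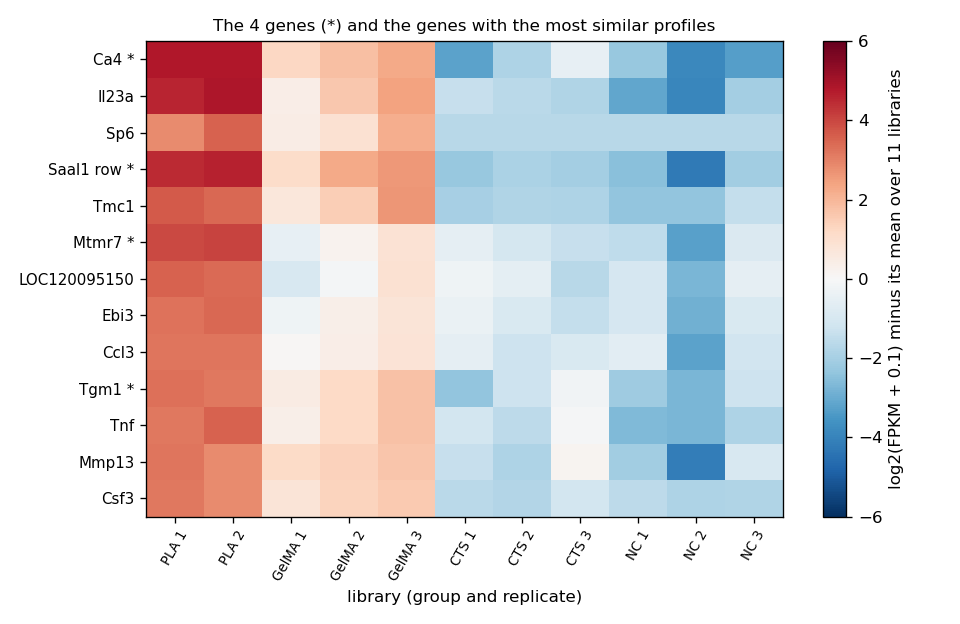
Log2(FPKM + 0.1) minus its mean over the 11 libraries for the 4 genes (asterisks) and the genes closest to each in profile, with red above and blue below the mean. The PLA columns are the reddest in every line, GelMA replicate 3 is redder than GelMA replicate 1, and NC replicate 2 is the bluest column for most genes.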

How the data were processed

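RNA was sequenced in 11 libraries, which the labels assign to PLA (2), GelMA (3), CTS (3) and NC (3). Per the labels, the authors used fastp, HISAT2, HTSeq and DESeq with the mRatBN7.2 build, and the libraries were made with a VAHTS Universal V6 kit; versions and strand setting are not given in the sources used here. The authors deposited raw counts per gene and FPKM values per gene. FPKM was the count scaled by gene length and by the total of its library in all 205408 values above 0, within a relative tolerance of 0.001, and so carries no composition factor. No pair of same-group libraries agreed within sampling noise (chi-square per degree of freedom 25.5 to 948), so none was treated as 1 library deposited more than once. This does not show that they are independent animals.

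Counts were tested in edgeR 4.0.16 (R 4.3.3; quasi-likelihood, robust, TMM factors, filterByExpr with a minimum count of 10), with 1 fit over the 4 groups, Benjamini-Hochberg adjustment over 18049 genes, and a call at adjusted p under 0.05 with a log2 fold change beyond 1. The SE beside each edgeR log2 fold change was its absolute value over the square root of the quasi-likelihood F statistic. The scripts were tested on simulated data. Alternatives were RLE factors, library size alone, no filter, DESeq2 1.42.0, a fit on the compared groups alone, limma 3.58.1 on log2(FPKM + 1) and log2(FPKM + 0.1) with an FPKM filter of 1 or none, a replicate block, an adjusted p under 0.01, and leaving out each library. Figures were drawn with matplotlib 3.10.9 in Python 3.11.15. Names were matched to RefSeq (GRCr8): 20553 rows matched by symbol, and of 6673 LOC rows, 5217 carried an ID in the reference.

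Genes named were the 4 chosen genes in every library, the called and the most abundant members of family lists, the nearest annotated genes, and the 3 genes closest in profile (prior count 2). The 4 genes and the lists were chosen with earlier results of these data known.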

Additional observations from a re-analysis of the deposited data

How the results depend on the processing

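Direction was kept for the 4 genes under all 21 alternatives in every comparison. In PLA against NC the log2 fold change ranged over 7.60 to 8.72 for Ca4, 7.27 to 7.97 for the Saal1 row, 4.81 to 6.63 for Mtmr7 and 3.84 to 6.35 for Tgm1. Of the 4 genes, GelMA against NC called 4, but 2 at an adjusted p under 0.01. CTS against GelMA called 2, but 1 without the filter on low counts, 1 at an adjusted p under 0.01 and between 0 and 3 when 1 library was left out. CTS against NC called 0 in all settings.

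The number of listed family genes called moved more. In PLA against NC it was 10, but 16 with DESeq2, 5 with edgeR on the compared groups alone, and 5 to 17 when 1 library was left out (5 without PLA replicate 1, 6 without PLA replicate 2, 17 without NC replicate 2). In PLA against GelMA it was 2, but 13 with library size alone, 5 with DESeq2, 8 with edgeR on the compared groups, 5 with limma on log2(FPKM + 1), 13 on log2(FPKM + 0.1), 4 without the FPKM filter, and 2 to 5 when 1 library was left out (4 and 5 without NC replicates 1 and 2). In PLA against CTS it was 8, but 13 with library size alone, 13 with limma on log2(FPKM + 0.1), 3 at an adjusted p under 0.01, and 4 to 12 when 1 library was left out (5 and 4 without PLA replicates 1 and 2, 4 and 5 without CTS replicates 1 and 2, 12 without NC replicate 2). The cause of these shifts was not tested.

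Library size alone moved the median log2 fold change of all genes to -0.43, -0.58 and -0.51 in PLA against NC, GelMA and CTS, and to 0.16 in GelMA against NC, so the direction of a gene with a small change depends on scaling. Replicate numbers gave no clear sign of pairing: 1 of 15 same-numbered pairs had a correlation over 0.1, and 5 of 11 libraries correlated best with their own number. The correlations used deviations from the means of small groups, so they cannot exclude pairing. With the replicate block, GelMA against NC called 3 of the 4 genes (Mtmr7 1.96, adjusted p = 0.0662), and CTS against GelMA called 2, Tgm1 (-2.48, adjusted p = 0.0273) in place of Ca4 (-3.41, adjusted p = 0.0540), all by edgeR.

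PLA had 2 libraries, so its spread is taken from all groups. At 22509898 to 31290849 counts per library, Tgm1 rests on 26 to 83 counts in NC and Saa4 on 0.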
